A study of Rattus norvegicus with 2 samples.

Results

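Genes of tendon identity and tendon matrix were described here in the muscle of 1 rat-mouse chimera and 1 Sprague-Dawley (SD) rat. The 8 genes were chosen by name: Tnmd, Scx, Mkx, Thbs4, Comp, Chad, Cilp and Cilp2. Each had 1 row among the 23373 rat genes of both libraries and 1 row among the 25906 mouse genes of the chimera library. The chimera was an SD rat that had received gene-edited Dmd mdx; Pax7-nGFP mouse induced pluripotent stem cells (iPSCs) as a morula, and it was 1 of 7 such animals in the study. The SD rat carried no mouse cells and served as the control. Muscle of the whole body was digested with collagenase, red cells were lysed, live cells were sorted by Calcein Violet, and transcripts were counted in droplets by unique molecular identifiers (UMIs). Age and sex of the animals are not given in the labels.

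Tendon cells, or tenocytes, lay down the collagen cables that tie muscle to bone. Scx (scleraxis), a basic helix-loop-helix transcription factor, and Mkx (Mohawk), a homeobox transcription factor, are known to drive the tendon program, and Tnmd (tenomodulin), a membrane glycoprotein, is a late marker of it. Thbs4 and Comp are thrombospondins of the matrix, Chad (chondroadherin) is a leucine-rich repeat protein that binds collagen, and Cilp and Cilp2 are secreted proteins first known from the intermediate layer of cartilage. Fibroblasts of muscle, which include the fibro-adipogenic progenitors (FAPs), make the connective tissue around the fibers and are the cell types nearest to tenocytes in this tissue.

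The chimera library held 13299 barcodes with a median of 7407 UMIs, and the SD rat library held 10117 with a median of 5373. After filters on quality and predicted doublets, 11730 and 8816 barcodes were left, and 43 barcode sequences occurred in both libraries. A chimera barcode was called rat when at most 20% of its UMIs were on mouse genes and mouse when at least 80% were. Clusters were named from marker lists that held none of the 8 genes, and the 8 genes were kept out of the clustering. There was 1 library per animal, so no p-value was computed. Levels are given as CPM, the UMIs of a gene per 1e6 UMIs of the cells, with exact 95% Poisson intervals, ratios with exact 95% binomial intervals, and shares of cells with exact 95% binomial intervals. All of them cover counting error only and say nothing about differences between animals.

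Tenocyte-like clusters were present in all 3 populations, with 521 cells in the SD rat, 580 rat cells in the chimera and 40 mouse cells in the chimera. The name came from a list of Fmod, Kera, Col11a1, Col11a2, Col22a1, Cpxm2, Angptl7, Wif1 and Ptx4, of which at least 3 had to be raised. Ptx4 was sparse in rat tenocyte-like cells, at 9.51 CPM in the SD rat and 13.5 CPM in the chimera. Fmod (fibromodulin), for example, stood at 4745 CPM in SD rat tenocyte-like cells against 32.4 CPM in the pooled fibroblast-like cells. The mouse cluster was less clearly set apart, since its 10 leading genes held both Fmod from the tenocyte list and Prg4 from the list of Myoc fibroblasts. The pooled fibroblast-like cells numbered 3201 in the SD rat, 2600 rat cells in the chimera and 124 mouse cells in the chimera. They joined Myoc fibroblast-like, Pi16 FAP-like and Smoc2 FAP-like cells and, in the rat populations only, other fibroblast-like clusters.

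In the rat cells of both animals, 7 of the 8 genes had their highest level among the named classes in tenocyte-like cells, and Cilp was the exception. In the mouse cells all 8 genes were highest there. Tenocyte-like cells held 88.8% of all Tnmd UMIs of SD rat cells and 91.9% of those of chimera rat cells. The corresponding shares were 94.2% and 93.0% for Chad, 90.3% and 91.5% for Cilp2, 83.3% and 77.6% for Comp, and 77.3% and 84.4% for Scx. Mkx followed with 75.0% and 75.8%, and Thbs4 with 58.2% and 64.4%. Of the Cilp UMIs, tenocyte-like cells held 5.80% in the SD rat and 10.1% in the chimera rat cells, while fibroblast-like cells held most of the rest.

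**Figure D1:**
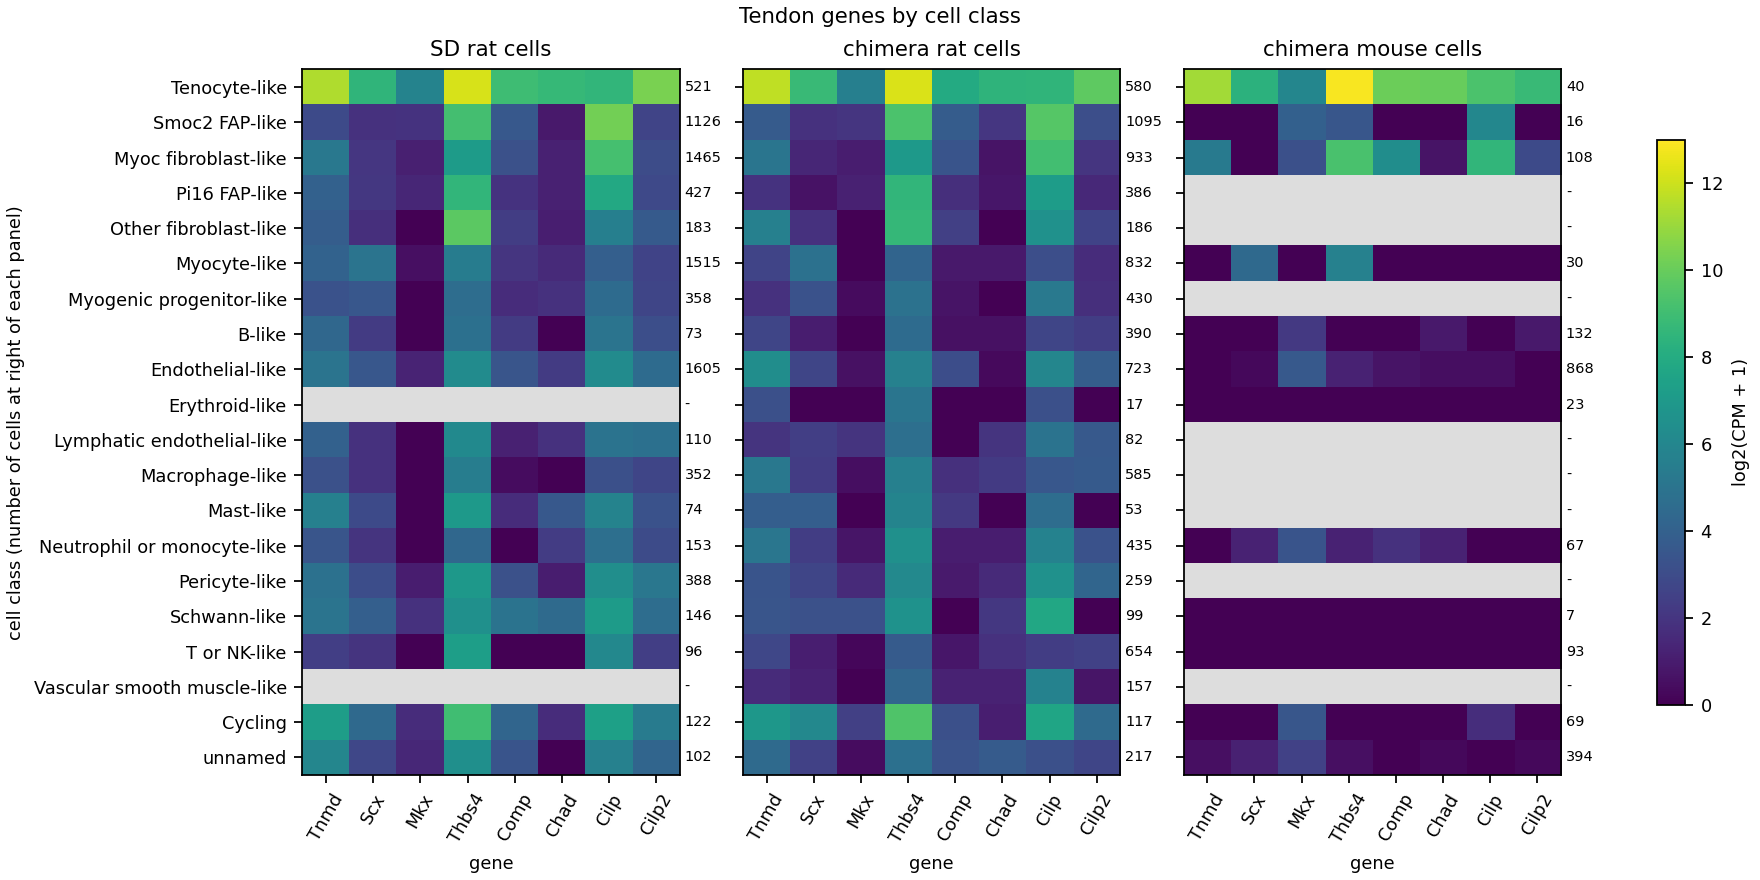
Level of each of the 8 genes, as log2(CPM + 1), in each named cell class of SD rat cells, chimera rat cells and chimera mouse cells, with the number of cells at the right of each row and grey where a class was not found. The tenocyte-like row is the brightest for every gene in the mouse cells and for all but Cilp in the rat cells of both animals.

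Scx, a transcription factor, stood at 363 CPM (346 to 382) in SD rat tenocyte-like cells, at 451 CPM (433 to 469.8) in chimera rat cells and at 327 CPM (283 to 376) in chimera mouse cells. At least 1 Scx UMI was found in 63.7% of the SD rat cells, 75.5% of the chimera rat cells and 80% of the mouse cells of this class. Mkx was sparse, at 55.7 CPM (49.0 to 63.1), 48.5 CPM (42.6 to 54.9) and 61.4 CPM (43.2 to 84.6) in the same order. The 3 Mkx intervals overlapped, so its order among the populations cannot be read from these counts. Tnmd, the membrane marker, reached 2833 CPM (2783 to 2883), 3412 CPM (3362 to 3463) and 2348 CPM (2227 to 2474), and no interval overlapped another. It was found in 94.6%, 98.1% and 97.5% of the tenocyte-like cells, so nearly every cell of the class carried it.

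Among the thrombospondins, Thbs4 was found in 98.8%, 98.6% and 97.5% of the tenocyte-like cells, at 4809 CPM (4744 to 4874), 4915 CPM (4854 to 4976) and 7428 CPM (7212 to 7648). The Thbs4 intervals of the SD rat and the chimera rat cells overlapped, and the mouse value lay above both. Comp was found in fewer cells, 44.9% in the SD rat, 31.0% in chimera rat cells and 70% in mouse cells. Its levels were 506 CPM (485 to 528), 248 CPM (234 to 262) and 1091 CPM (1009 to 1178), in that order. Chad, the collagen-binding protein, had a like spread, at 416 CPM (398 to 436), 356 CPM (339 to 372) and 1012 CPM (933 to 1095), with 30.7%, 25.9% and 55% of cells positive. Median depth was 7594, 7999.5 and 14099.5 UMIs, in the same order, which bears on these shares.

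The cartilage intermediate layer proteins differed from each other. Cilp2 was found in 91.7% of SD rat, 85.3% of chimera rat and 75.0% of mouse tenocyte-like cells, at 1321 CPM (1288 to 1356), 862 CPM (837 to 888) and 449 CPM (397 to 506). Cilp stood at 370.3 CPM (353 to 389) in the SD rat and 362 CPM (346 to 379) in chimera rat cells, with overlapping intervals, and at 627 CPM (565 to 693) in mouse cells. It was found in 50.3%, 61.0% and 97.5% of the cells, respectively.

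Set against pooled fibroblast-like cells, 7 of the 8 genes were at least 10-fold higher in tenocyte-like cells of the SD rat on the scale of CPM + 1, against 0.739% of the 11644 genes with at least 50 UMIs. In chimera rat cells it was again 7 of 8, against 0.695% of 11374 genes, and in mouse cells 6 of 8, against 0.635% of 5665 genes. At 10-fold the genes left out were Cilp in all populations and Mkx in the mouse cells. The genes were listed for being known in tendon, so these counts are a description.

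The largest ratio in the SD rat was that of Chad, 360.3-fold (266 to 502), and Cilp2 followed with 200.1-fold (176 to 229). On the scale of CPM + 1 they were 194-fold and 174-fold, at ranks 2 and 3 of 11644 genes. The Chad level in fibroblast-like cells was 1.16 CPM on 42 UMIs, under the 3.84 CPM of endothelial-like cells. Low levels of this kind bear on the size and order of the ratios. Tnmd was 129-fold (119.9 to 139), Scx 122-fold (101 to 150.0) and Comp 63.4-fold (56.1 to 71.9) higher than in fibroblast-like cells. Mkx was 32.7-fold (24.6 to 43.9) and Thbs4 13.7-fold (13.4 to 14.0) higher. The order changed in chimera rat cells, with Scx at 240.1-fold (183 to 321), Chad at 218-fold (163 to 297), Cilp2 at 181-fold (153 to 216) and Tnmd at 174-fold (160.3 to 189.9). The intervals of these 4 ratios overlapped, so their order in chimera rat cells is within counting error. In mouse cells the ratio of Scx was at least 201-fold, because none of the 124 fibroblast-like cells held an Scx UMI (an upper limit of 2.42% from 3 counts), and that of Thbs4 was 13.3-fold (12.4 to 14.2).

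For 6 of the 8 genes the level in SD rat fibroblast-like cells was not clearly above that in endothelial-like cells, which line vessels and should lack a tendon program. Scx stood at 2.97 CPM in the pooled fibroblast-like cells of the SD rat and at 10.5 CPM in its endothelial-like cells. For Comp the values were 7.98 and 9.61 CPM, for Chad 1.16 and 3.84 CPM, for Cilp2 6.60 and 22.2 CPM, and for Tnmd 22.0 and 31.0 CPM. The share of cells with a UMI was 2.87% and 2.68% for Scx, 6.12% and 2.06% for Comp, and 7.97% and 6.79% for Tnmd, in fibroblast-like and endothelial-like cells. Median depth in the SD rat was 10921 UMIs in pooled fibroblast-like, 7594 UMIs in tenocyte-like and 1827 UMIs in endothelial-like cells. After thinning to 1000 UMIs, which left out 4 fibroblast-like and 470.0 endothelial-like cells, Scx was found in 0.282% and 1.32%, Comp in 0.938% and 0.969%, and Tnmd in 1.94% and 3.08% of the cells. Free RNA in the droplets was not measured, and no expression in fibroblast-like cells was read from these values. Mkx, at 1.71 CPM (1.31 to 2.19) in fibroblast-like and 1.49 CPM (0.601 to 3.08) in endothelial-like cells, did not differ beyond its interval. In chimera rat cells Scx, Cilp2 and Tnmd were again lower in fibroblast-like than in endothelial-like cells, for Tnmd at 19.6 against 81.0 CPM, and the intervals of Comp, Chad and Mkx overlapped. In mouse cells Tnmd was at 34.1 CPM in fibroblast-like cells, in 6 of 124 cells, and at 0 in 868 endothelial-like cells, with an upper limit of 0.346%. Comp was at 74.3 CPM in mouse fibroblast-like cells, but 95 of its 137 UMIs were in 1 cell.

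**Figure D2:**
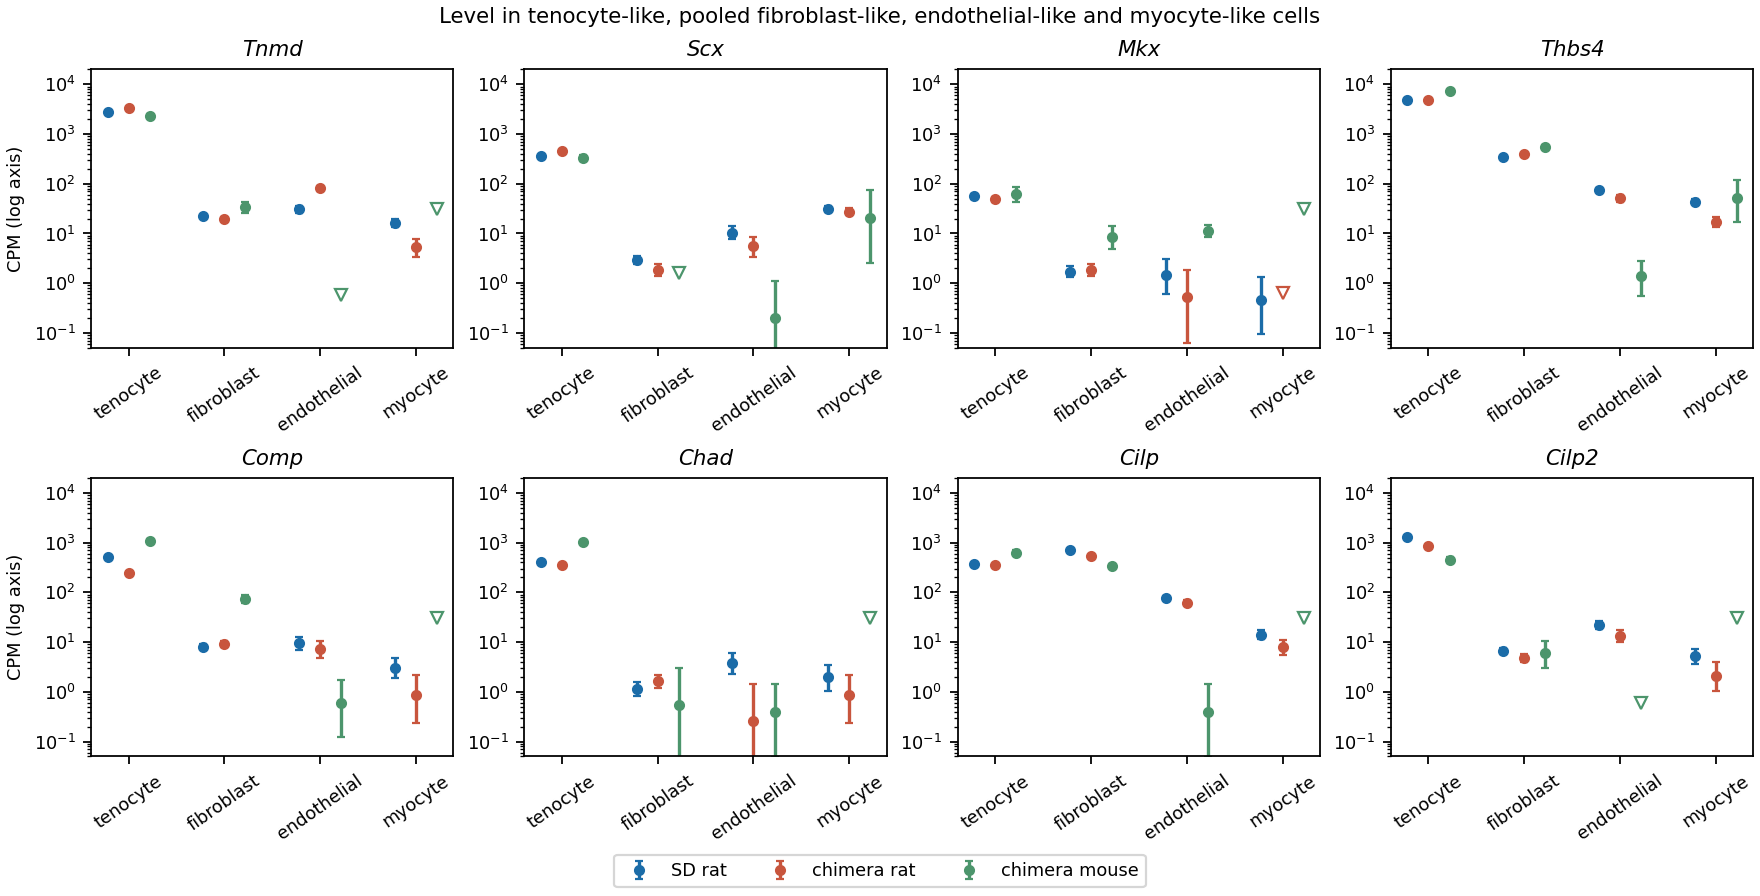
Level of each gene in CPM on a log axis, with exact 95% Poisson intervals, in tenocyte-like, pooled fibroblast-like, endothelial-like and myocyte-like cells of the 3 populations, where open triangles mark the limit of 3 counts for a level of 0. Thbs4 and Cilp are the genes whose fibroblast-like level lies far above the endothelial-like level in both rat populations, and Scx is higher in myocyte-like than in fibroblast-like rat cells.

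Thbs4 and Cilp were different. Thbs4 stood at 352 CPM in SD rat fibroblast-like cells against 75.4 CPM in endothelial-like cells, and at 394 against 50.7 CPM in chimera rat cells. By class, Thbs4 was highest in the other fibroblast-like clusters of the SD rat, at 858 CPM (815 to 903), then in Smoc2 FAP-like cells at 561 CPM and Pi16 FAP-like cells at 379 CPM, and lowest in Myoc fibroblast-like cells at 140.5 CPM. In chimera rat cells the order began with Smoc2 FAP-like cells at 636 CPM, followed by 404 CPM (373 to 437) in the other fibroblast-like clusters, 376 CPM in Pi16 FAP-like and 132 CPM in Myoc fibroblast-like cells. The values of the second and the third place had overlapping intervals there. In mouse cells Thbs4 stood at 626 CPM in the 108 Myoc fibroblast-like cells, against 9.99 CPM in 16 Smoc2 FAP-like cells. Of those 108 cells, only 36 (33.3%) held any Thbs4 UMI. The cell with the most held 214 of their 1029 Thbs4 UMIs.

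Cilp was the only one of the 8 genes with a higher level in pooled fibroblast-like than in tenocyte-like rat cells. Fibroblast-like cells held 695 CPM (686 to 703) in the SD rat, 1.88-fold (1.78 to 1.97) above its tenocyte-like cells, and 527 CPM (519 to 536) in chimera rat cells, 1.45-fold (1.39 to 1.53) above. With at most 10% of UMIs on mouse genes in a chimera rat cell, Cilp was instead higher in the 55 tenocyte-like cells left, by 0.31 on the log2(CPM + 1) scale. It was highest in Smoc2 FAP-like cells, where Cilp reached 1222 CPM and 78.4% of cells in the SD rat, and 764 CPM (748 to 780) and 75.8% of cells in the chimera. These cells held 51.0% and 47.9% of all Cilp UMIs of their populations. Myoc fibroblast-like cells followed at 564 and 529 CPM, also above tenocyte-like cells, and Pi16 FAP-like cells at 225 and 144 CPM. In the mouse cells Cilp was instead 1.82-fold (1.59 to 2.07) higher in tenocyte-like than in fibroblast-like cells, with 379 CPM in Myoc fibroblast-like and 64.9 CPM in the few Smoc2 FAP-like cells. The mouse pool lacked Pi16 FAP-like cells and was mostly of Myoc fibroblast-like cells, so its makeup differed from that of the rat pools.

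Scx was also found in myocyte-like cells, which express the contractile genes of muscle fibers. It stood there at 30.6 CPM (26.5 to 35.1) in the SD rat, in 11.5% of 1515 cells, and at 27.5 CPM (23.0 to 32.7) in chimera rat cells, in 13.2% of 832 cells. The SD rat level was above the 10.5 CPM (7.74 to 13.8) of endothelial-like and the 2.97 CPM of fibroblast-like cells, although no myocyte-like cell held more than 4 Scx UMIs. After each cell was thinned to 1000 UMIs, 2.67% of the SD rat myocyte-like cells held Scx. Cycling cells, named from cell cycle markers, held Scx at 20.5 CPM in the SD rat and 66.2 CPM in chimera rat cells. In the chimera that was above the myocyte-like level. Tnmd stood at 147 and 117 CPM and Thbs4 at 508 and 686 CPM in the same cycling cells. Cell types were not separated within this class, so its Scx cannot be assigned to 1 of them. The share of Scx in the UMIs of Scx and Tnmd together is given by class, and the part of free RNA in it was not tested. In tenocyte-like cells Scx made up 11.4% of the UMIs of Scx and Tnmd together in the SD rat and 11.7% in chimera rat cells. In myocyte-like cells it made up 65.3% (59.7 to 70.6) and 83.9% (77.1 to 89.3). In myogenic progenitor-like cells, the stem and precursor cells of muscle, the share was 54.5% (38.8 to 69.6) and 76.9% (60.7 to 88.9), at Scx levels of 10.5 and 8.71 CPM. In pooled fibroblast-like cells it was 11.9% (9.87 to 14.2) and 8.75% (6.64 to 11.3). Within the SD rat pool it ran from 7.91% (5.97 to 10.2) in Myoc fibroblast-like to 29.0% (20.6 to 38.5) in Smoc2 FAP-like cells. Endothelial-like cells stood at 25.3% (19.3 to 32.0) in the SD rat and 6.34% (3.97 to 9.53) in chimera rat cells. For cycling cells the shares were 12.2% and 36.1%.

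The mouse row of Mkx had a pattern of its own. Of the Mkx UMIs in mouse cells, 24.2% were in tenocyte-like cells, against 75.0% and 75.8% in the rat populations. Mouse endothelial-like cells held it at 11.4 CPM (8.69 to 14.8), 58 UMIs in 39 of 868 cells (4.49%), while rat endothelial-like cells were at 1.49 CPM in the SD rat and 0.522 CPM in the chimera. In the same mouse endothelial-like cells Tnmd was at 0 of 868 cells and Scx at 0.197 CPM. Other mouse classes held Mkx too, at 10.3 CPM in cycling, 9.33 CPM in neutrophil or monocyte-like and 7.90 CPM in Myoc fibroblast-like cells. Mkx was at 3.41 CPM in B-like cells and at 0 in T or NK-like and myocyte-like cells. Tenocyte-like cells made up 2.17% of mouse, 5.91% of SD rat and 7.05% of chimera rat cells, which bears on the shares of UMIs. Mouse rows and rat rows differ in gene annotation, and such a difference cannot be told apart from a difference between species.

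Within the tenocyte-like cells, the 8 genes were not spread evenly. When the rat cells of both animals were clustered together, tenocyte-like cells fell into a larger cluster of 363 SD rat and 339 chimera rat cells and a smaller one of 160 SD rat and 237 chimera rat cells. The larger cluster was led by Cpz, Sapcd1, Ndufa4l2 and Igfbp5, and the smaller by Col22a1, Lypd1, Plet1 and Trpm3. Col22a1, a collagen known from the junction of muscle and tendon, stood at 447 CPM in the smaller and 3.76 CPM in the larger cluster of the SD rat, and at 296 and 0.911 CPM in chimera rat cells. The leading genes helped to define the clusters and are given to identify them. The 8 genes were left out of the clustering, but cells were clustered on genes that vary with them, so their values here are a description.

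Comp and Chad were far higher in the larger cluster. Comp stood at 697 CPM there and 3.31 CPM in the smaller cluster of the SD rat, a ratio of 210.2-fold (82.0 to 772) that rests on 4 UMIs in the smaller cluster. Comp stood in chimera rat cells at 379 against 6.87 CPM, 55.2-fold (31.5 to 107). Chad stood at 565 against 9.11 CPM in the SD rat, 62.0-fold (34.6 to 124), and at 534 against 27.5 CPM in chimera rat cells, 19.4-fold (14.6 to 26.5). In the smaller cluster of chimera rat cells, 42 of the 48 Chad UMIs were in 1 cell. Without the highest cell of each cluster the Chad ratio was 149.6-fold (68.6 to 408) in chimera rat cells and 106-fold (48.7 to 289.8) in the SD rat, and that of Comp was 103-fold (47.0 to 280.4) and 408-fold (113 to 3371). At least 1 Comp UMI was found in 63.4% of the larger and 1.88% of the smaller cluster in the SD rat, and in 51.3% and 2.53% in chimera rat cells.

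Mkx and Cilp2 leaned the same way by less. Mkx was 2.43-fold (1.68 to 3.62) and 2.44-fold (1.75 to 3.46) higher in the larger cluster of the SD rat and of chimera rat cells. For Cilp2 the ratios were 2.68-fold (2.48 to 2.91) and 2.65-fold (2.44 to 2.87). Tnmd was near even, at 2919 CPM in the larger and 2605 CPM in the smaller cluster of the SD rat and 3726 and 2883 CPM in chimera rat cells.

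Cilp, Thbs4 and Scx leaned to the smaller cluster. Cilp stood at 1009 CPM there and 129 CPM in the larger cluster of the SD rat, 7.82-fold (6.99 to 8.76), and at 655 against 213 CPM in chimera rat cells, 3.07-fold (2.79 to 3.38). It was found in 91.2% of the cells of the smaller and 32.2% of the larger cluster in the SD rat, and in 91.1% and 40.7% in chimera rat cells. Thbs4 was 2.59-fold (2.52 to 2.66) and 1.75-fold (1.71 to 1.80) higher in the smaller cluster, and Scx 1.83-fold (1.65 to 2.02) and 2.16-fold (1.99 to 2.35) higher.

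At 2-fold on the scale of CPM + 1, the larger cluster was higher for Mkx, Comp, Chad and Cilp2 in both animals, 4 of the 8 genes, against 6.14% of all genes in the SD rat and 6.26% in chimera rat cells. The smaller cluster was higher for Thbs4 and Cilp in the SD rat, 2 of 8 against 14.7% of all genes, and for Scx and Cilp in chimera rat cells, 2 of 8 against 10.8%. The larger cluster held 69.4% (65.3 to 73.3) of the tenocyte-like cells in the SD rat and 58.9% (54.7 to 62.9) in chimera rat cells.

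**Figure D3:**
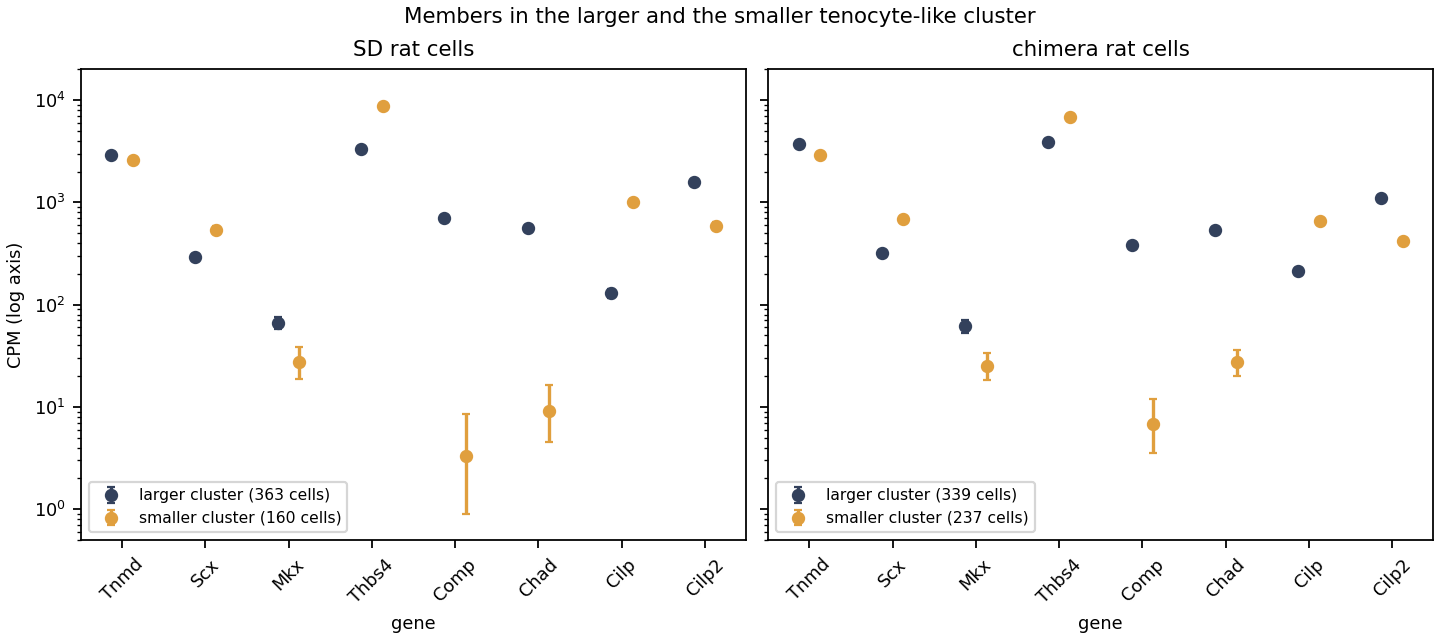
Level of each gene in CPM on a log axis in the larger and the smaller tenocyte-like cluster of SD rat and chimera rat cells, with exact 95% Poisson intervals. Comp and Chad are far higher in the larger cluster and Cilp in the smaller one, in both animals, while Tnmd differs little.

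The split was also seen cell by cell in the tenocyte-like class without the joint clusters. After thinning to 1000 UMIs per cell, Chad was found in 35.2% of the 128 SD rat cells with Comp and 9.28% of the 388 without it. In chimera rat cells the shares were 28.0% of 75 and 9.94% of 503 cells. Cilp went the other way, in 7.81% of the SD rat cells with Comp against 32.0% of those without it, and in 9.33% against 25.8% of chimera rat cells. In the 40 mouse cells Chad leaned the same way, in 57.9% of 19 cells with Comp and 23.8% of 21 without it, but Cilp was in 36.8% and 23.8%.

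Promoter sequences of the pair that was high in the larger cluster, Comp and Chad, and of Thbs4 and Cilp, which were higher in the smaller cluster, are shown because these genes parted within the class. Each is the 250 bases before the RefSeq gene start on the GRCr8 rat assembly, written 5′ to 3′ on the strand of the gene. Capitals mark the letters CANNTG, the E-box read by basic helix-loop-helix factors such as Scx, which reads the same on both strands, and no 2 matches overlap in these windows.
Rat Comp, chr16:19089549-19089798, minus strand: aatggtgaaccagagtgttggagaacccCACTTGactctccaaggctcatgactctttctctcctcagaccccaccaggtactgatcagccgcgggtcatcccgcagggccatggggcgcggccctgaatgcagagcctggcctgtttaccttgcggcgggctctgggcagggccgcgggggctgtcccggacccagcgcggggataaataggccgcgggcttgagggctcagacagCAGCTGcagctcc
Rat Chad, chr10:80008795-80009044, plus strand: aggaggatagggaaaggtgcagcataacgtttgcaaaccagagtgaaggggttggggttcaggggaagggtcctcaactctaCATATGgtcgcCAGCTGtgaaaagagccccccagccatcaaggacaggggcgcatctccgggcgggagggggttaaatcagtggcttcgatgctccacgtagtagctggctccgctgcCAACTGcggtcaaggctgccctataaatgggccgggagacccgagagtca
Rat Thbs4, chr2:25760346-25760595, minus strand: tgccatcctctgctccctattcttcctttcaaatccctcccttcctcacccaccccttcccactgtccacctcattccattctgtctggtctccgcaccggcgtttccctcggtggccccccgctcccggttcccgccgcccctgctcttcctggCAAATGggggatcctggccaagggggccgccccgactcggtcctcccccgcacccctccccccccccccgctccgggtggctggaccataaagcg
Rat Cilp, chr8:74672198-74672447, plus strand: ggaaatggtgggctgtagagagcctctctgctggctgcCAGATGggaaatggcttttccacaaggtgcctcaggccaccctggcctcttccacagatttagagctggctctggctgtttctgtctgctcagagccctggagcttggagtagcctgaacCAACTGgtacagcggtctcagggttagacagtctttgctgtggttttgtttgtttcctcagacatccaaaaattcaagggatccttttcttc
The Chad window held 3 such matches, those of Comp and Cilp 2 each, and that of Thbs4 1. Of the other genes Cilp2 held 2, and Mkx and Tnmd held 0, which says only that these letters are not in their windows. Among all 33469 rat promoters of the same length, 65.5% held at least 1 match, with a median of 1, so the motif is common. RefSeq sequences were matched for 7 of the 8 genes, all but Scx. A match is a run of letters and not a measured binding site.

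Chimera rat cells were compared with SD rat cells in the same class, to ask how tendon genes of the host stood in the chimera. The median of the 8610 genes with enough counts in tenocyte-like cells differed by -0.03 on the log2(CPM + 1) scale, and the median of the 8 genes by -0.11. At 2-fold, 1 of the 8 genes was lower in chimera rat cells, against 2.20% of all genes, and 0 were higher, against 1.22%. The lower gene was Comp, at 506 CPM in the SD rat and 248 CPM in chimera rat cells, a log2 difference of -1.03 (-1.13 to -0.93). Cilp2 was lower by less, at 1321 and 862 CPM, a difference of -0.62 (-0.67 to -0.56). For the other 6 genes the log2 difference was 0.27 for Tnmd, 0.31 for Scx, -0.20 for Mkx, 0.03 for Thbs4, -0.23 for Chad and -0.03 for Cilp.

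The libraries were mapped to different references, and a read of a rat transcript can be assigned to the mouse gene only in the chimera. In tenocyte-like cells, few UMIs of the 8 genes were on the mouse row. Of the UMIs of each rat and mouse gene pair in chimera rat tenocyte-like cells, the mouse row held 0.121% for Tnmd, 0.0870% for Scx, 0.338% for Thbs4, 0.237% for Comp and 0.0683% for Cilp2. It held 1.20% for Mkx, 2.07% for Cilp and 0 of 1811 UMIs for Chad, against a median of 3.52% over 6687 pairs. Even so, these cells had a median of 13.1% of their UMIs on mouse rows, which lowers the total that rat rows are scaled to. Rat reads assigned to mouse genes and mouse RNA in the droplets cannot be told apart in these counts, and summed rows include both. With rat and mouse rows summed, Comp was at a log2 difference of -1.22 and Cilp2 at -0.81, while Thbs4 changed sign to -0.16. On this scale 1 of the 8 genes was again at least 2-fold lower, against 2.02% of all genes, and 0 were higher, against 1.22%. In pooled fibroblast-like chimera rat cells the mouse row held 15 of 68 Mkx UMIs, 22.1% (12.9 to 33.8). The median there was 4.10% over 10491 pairs, and no other gene of the 8 was above the 3.57% of Scx.

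The chimera rat cells also had a smaller part of their tenocyte-like cells in the larger cluster, which holds nearly all Comp. Inside the larger cluster Comp was 1.84-fold (1.71 to 1.97) higher in the SD rat, compared with 2.04-fold (1.91 to 2.19) over all tenocyte-like cells, and no longer reached 2-fold on the log2(CPM + 1) scale, at -0.88. Cilp2 was 1.45-fold (1.39 to 1.51) higher in the SD rat inside the larger cluster and 1.53-fold (1.47 to 1.59) over the class. For Cilp the difference was -0.03 over the class, and it ran in opposite directions inside the clusters, by 0.72 in the larger and -0.62 in the smaller cluster. Inside the smaller cluster Comp and Chad were higher in chimera rat cells, by 0.87 and 1.49, but on few UMIs. The interval of the Comp difference ran from -0.67 to 3.14, on 4 UMIs in the SD rat, and included no difference. For Chad, 42 of the 48 chimera rat UMIs were in 1 cell, and without the highest cell of each library the difference was -0.45 (-2.46 to 1.34), so its direction turned. With rat cells limited to at most 10% of UMIs on mouse genes, which left 55 chimera rat tenocyte-like cells, the Comp difference was -0.53 and that of Cilp 0.59.

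Markers of other cell types in the tenocyte-like cells moved with this comparison in part. The 7 measured myocyte markers of 8 listed summed to 5025 CPM in SD rat, 3269.6 CPM in chimera rat and 133 CPM in mouse tenocyte-like cells, all 7 above 10 CPM in both rat populations. Erythroid markers, of which 5 of 8 were in the rat files, summed to 717 CPM in the SD rat and 30.2 CPM in chimera rat cells, where 4 of the 5 were at 0. The 5 Myoc fibroblast markers summed to 3447 and 3799.8 CPM, and the 7 endothelial markers to 65.9 and 62.4 CPM. The 7 general fibroblast markers, which include the main collagens, summed to 120505 CPM in SD rat and 78184 CPM in chimera rat cells. Vascular smooth muscle markers stood at 132 and 47.3 CPM, lymphatic endothelial markers at 18.1 and 126 CPM, macrophage markers at 10.2 and 46.5 CPM, and neutrophil or monocyte markers at 30.1 and 60.3 CPM. Their part in the differences between the animals was not tested.

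**Figure D4:**
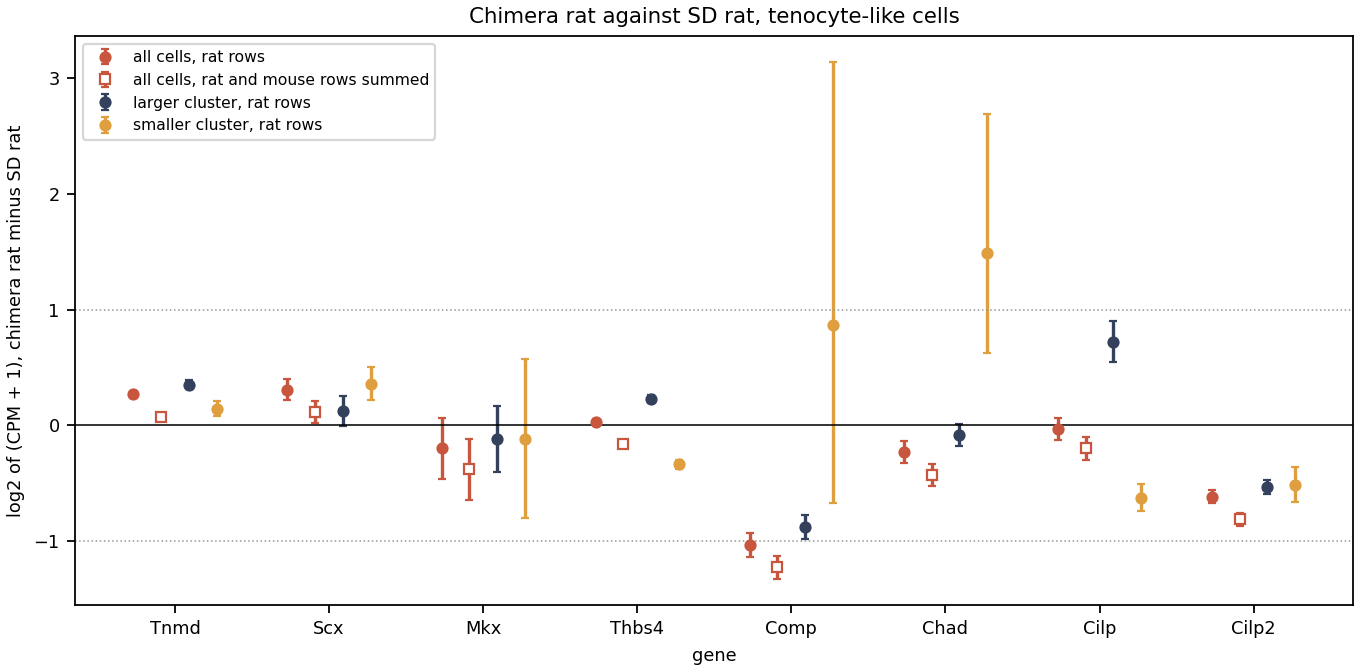
Log2 difference of CPM + 1 between chimera rat and SD rat tenocyte-like cells for each gene, for all cells on rat rows, for rat and mouse rows summed, and inside the larger and the smaller cluster, with dotted lines at 2-fold. Comp and Cilp2 are lower in chimera rat cells over all cells, by 1.03 and 0.62 on rat rows, and the higher values of Comp and Chad inside the smaller cluster rest on 4 SD rat Comp UMIs and on 1 chimera rat cell with 42 of 48 Chad UMIs.

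In pooled fibroblast-like cells none of the 8 genes differed by 2-fold between chimera rat and SD rat cells, against 1.55% of 12336 genes lower and 0.957% higher. Cilp was 1.32-fold (1.29 to 1.34) higher in the SD rat, and Thbs4 1.12-fold (1.09 to 1.15) higher in chimera rat cells. By class, 1 of the 3 genes with enough counts, Tnmd, was at least 2-fold lower in chimera rat Pi16 FAP-like cells, against 2.33% of genes, and 0 were higher, against 0.708%. Tnmd stood there at 2.79 CPM against 15.2 CPM in the SD rat, where it was 5.45-fold (3.14 to 10.1) higher on 15 and 95 UMIs, and 4.23-fold (2.31 to 8.37) higher without the highest cell of each library. Both Tnmd levels were under those of endothelial-like cells, 81.0 CPM in chimera rat and 31.0 CPM in SD rat cells, and no expression was read from them. Of 6 genes in Myoc fibroblast-like cells 1, Cilp2, was lower, against 1.47% of genes, and 0 were higher, against 1.03%. Cilp2 stood at 3.01 against 7.11 CPM, 2.36-fold (1.58 to 3.63) higher in the SD rat, and fell short of 2-fold on the log2(CPM + 1) scale without the highest cells, at -0.92. These Cilp2 levels were likewise under the endothelial-like ones, 13.3 CPM in chimera rat and 22.2 CPM in SD rat cells. In Smoc2 FAP-like cells, the class with the most Cilp, the SD rat Cilp level was 1.60-fold (1.56 to 1.64) higher, and 1.79-fold (1.74 to 1.83) higher with rat and mouse rows summed.

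Mouse tenocyte-like cells were set beside the rat tenocyte-like cells of the same animal, each on the rows of its own species. Comp was 4.41-fold (4.01 to 4.85) and Chad 2.85-fold (2.59 to 3.12) higher in mouse cells, and these were the 2 genes past 2-fold in that direction, against 13.0% of 6814 gene pairs. No gene of the 8 was at least 2-fold lower, against 17.4% of pairs. The rat side pooled the larger cluster, with Comp at 379 and Chad at 534 CPM, and the smaller one, at 6.87 and 27.5 CPM. Mouse cells held Comp at 1091 and Chad at 1012 CPM. The part of this makeup in the 2 ratios was not tested. Cilp was 1.73-fold (1.54 to 1.93) and Thbs4 1.51-fold (1.46 to 1.56) higher in mouse cells. Of the 40 mouse cells, 1 held 164 of the 610 Chad UMIs, and another held 858 of the 4479 Thbs4 UMIs. The intervals do not cover such spread between cells. Cilp2 was 1.92-fold (1.70 to 2.18), Tnmd 1.45-fold (1.38 to 1.54) and Scx 1.38-fold (1.19 to 1.60) higher in rat cells, and the interval for Mkx, 1.27-fold (0.870 to 1.79), included no difference. With 40 mouse cells from 1 animal, and with annotation and read assignment that differ by species, the species cannot be told apart from these. Mouse cells were also deeper, with a median of 14099.5 UMIs against 7999.5 UMIs in rat tenocyte-like cells, which raises shares of positive cells.

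Single tenocyte-like cells often held UMIs of several of the 8 genes, but seldom of all 8. At least 4 of them had a UMI in 462 of 521 SD rat cells (88.7%), 532 of 580 chimera rat cells (91.7%) and 38 of 40 mouse cells (95%). In pooled fibroblast-like cells this held for 46 of 3201 (1.44%), 32 of 2600 (1.23%) and 3 of 124 cells (2.42%). After thinning to 1000 UMIs the shares in tenocyte-like cells were 41.7%, 35.5% and 52.5%, and in fibroblast-like cells 0.0313%, 0.0385% and 0 of 122 cells. All 8 genes were found in 14 SD rat, 9 chimera rat and 10 mouse tenocyte-like cells.

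**Figure D5:**
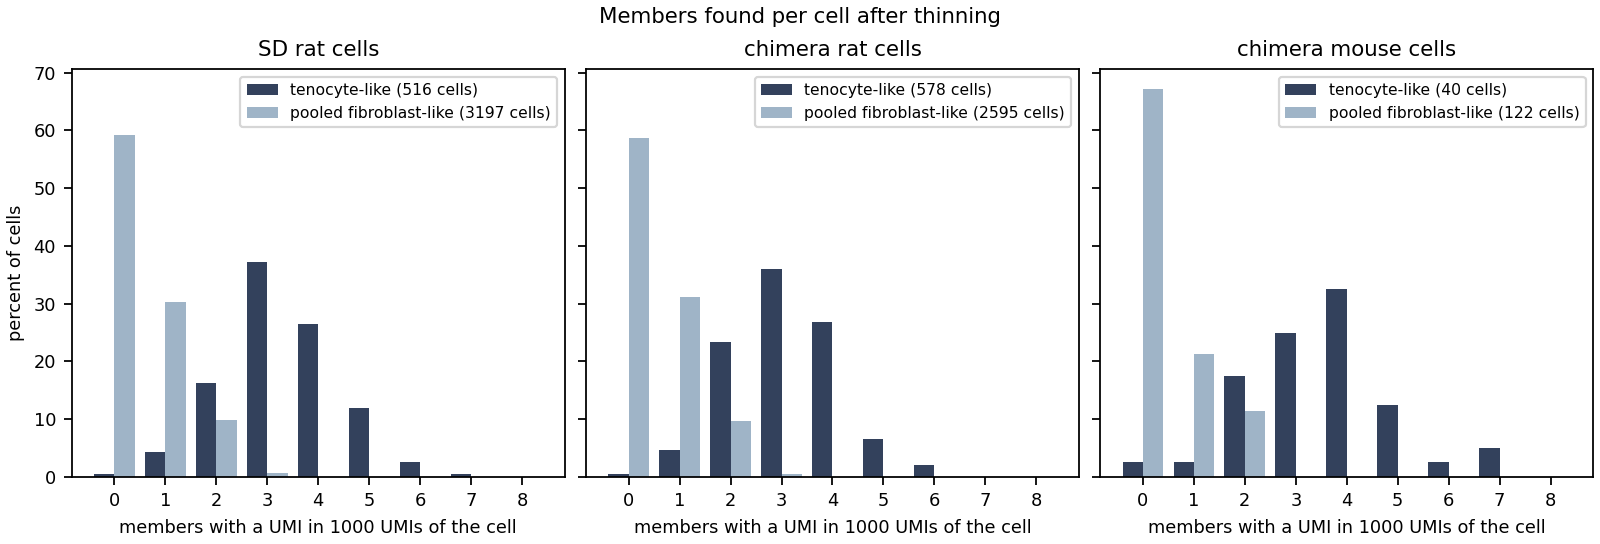
Share of cells, in percent, by the number of the 8 genes with at least 1 UMI after thinning each cell to 1000 UMIs, for tenocyte-like and pooled fibroblast-like cells of the 3 populations. Tenocyte-like cells have a median of 3 genes in both rat populations and 4 in mouse cells, and fibroblast-like cells a median of 0.

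A list of 20 further genes of tendon and of the families of the 8 genes was counted in the same way. In the SD rat 7 of the 20 were at least 2-fold higher in tenocyte-like than in pooled fibroblast-like cells, against 5.40% of all genes, and 0 were at least 2-fold lower, against 9.40%. Another 8 lay in between and 5 had under 50 UMIs. In chimera rat cells 7 were higher, against 4.91% of all genes, and 2 lower, against 11.2%, with 4 of the 20 under 50 UMIs. The lower genes there were Tgfb2, a growth factor needed for tendon formation, at 75.2 against 159.9 CPM, and Tcf15, a relative of Scx. Tcf15 stood at 0.785 against 2.75 CPM, on only 4 UMIs in tenocyte-like cells. Of the 8 UMIs of its gene pair there, 50% were on the mouse row, and with both rows summed its level was 1.37 CPM. In mouse cells 2 were higher, against 4.08%, and 1, Egr1, lower, against 16.6%, with 11 of the 20 under 50 UMIs.

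Tnc (tenascin-C), a matrix glycoprotein of tendon, stood at 721 CPM in tenocyte-like and 17.6 CPM in fibroblast-like cells of the SD rat, and at 696 and 19.0 CPM in chimera rat cells. The other thrombospondins were less set apart than Thbs4 and Comp. Thbs1 stood at 1080.4 against 508 CPM, Thbs2 at 563 against 189 CPM, and Thbs3 at 73.1 against 76.4 CPM in the SD rat. Tgfb3, a growth factor of the same family as Tgfb2, stood at 78.8 against 30.5 CPM. Tgfbi stood at 404 against 241 CPM, and Sox9, the main transcription factor of cartilage, at 13.4 CPM in both classes. Egr1, an early response transcription factor, was lower in tenocyte-like than in fibroblast-like cells, at 495 against 915 CPM in the SD rat and 949.6 against 1887 CPM in chimera rat cells.

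Between the animals 7 of the 20 genes had under 50 UMIs. Of the other 13, 1, Egr2, was at least 2-fold higher in chimera rat tenocyte-like cells, at 46.3 against 16.3 CPM. It is induced by the same stimuli as Egr1, which was at 949.6 CPM in chimera rat and 495 CPM in SD rat tenocyte-like cells. The 2 lower genes were the cartilage matrix genes Col2a1 and Acan, named after their values were seen. Acan (aggrecan) stood at 10.6 CPM in chimera rat and 32.6 CPM in SD rat cells, and a log2 difference of -1.37 was left with both rows summed. For Col2a1 63.4% of 224 UMIs of the gene pair in chimera rat cells were on the mouse row, and the log2 difference was -1.84 on rat rows and -0.64 with both rows summed. Where the Col2a1 UMIs on the mouse row came from was not tested.

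Across 36 class sums of the rat populations, 6 of the 8 genes shared some of the 3 genes most like each of them in pattern. The single most like gene differed for each of these 6. Gas2, which encodes a protein linked to actin and microtubules, was among the 3 genes with the highest Pearson r on the log2(CPM + 10) scale for Tnmd (0.917), Scx (0.890), Mkx (0.933), Comp (0.932), Chad (0.960) and Cilp2 (0.947). Col13a1, a transmembrane collagen, was among them for Tnmd (0.922), Scx (0.894) and Cilp2 (0.954). Thbs4 was most like Eya2, Ssc5d and Itgbl1, each at 0.880, and Cilp was most like Bgn (biglycan), a small proteoglycan of connective tissue, at 0.909. Among the 8 genes r ran up to 0.938, for Mkx and Chad, and the lowest was 0.269, for Scx and Cilp. The points share 2 libraries, their depth and their free RNA, and r is given as a description among 11940 genes. Tenocyte-like points stood far above the rest for most of the 8 genes. For Chad they were at 416 and 356 CPM, against at most 21.8 CPM in any other class. How much of r rests on these points was not tested.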

How the data were processed

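Single-cell transcriptomes of skeletal muscle from 1 rat-mouse chimera and 1 SD rat were analysed. The authors deposited UMI counts for each gene in each barcode, made with Cell Ranger 7.1.0 and not normalized. The chimera was mapped to a combined rat (mRatBN7.2), mouse (GRCm39) and EGFP reference, and the SD rat to the rat genes alone. Barcodes were kept with at least 500 UMIs, 200 genes and at most 20% mitochondrial UMIs. Doublets predicted by Scrublet in scanpy 1.11.5 at an expected rate of 8% were removed (444 and 164 barcodes), and 1653 chimera barcodes of mixed species were left out of the classes. The 3 populations were clustered separately on 2000 variable genes without the 8 genes, with 30 components, 15 neighbours and leidenalg 0.10.2 at resolution 1.

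A cluster was named "X-like" from its markers when at least 3 were found in at least 10% of its cells and stood 2-fold or more over the median cluster. This rule was set after the clusters were seen, the names are not those of the study, and differences from the study may come from them. UMIs were summed per class and scaled to CPM within the species. Folds across genes used CPM + 1 and genes with at least 50 UMIs, and a level of 0 was given the limit of 3 counts. Counts were not adjusted for gene length, so levels are compared between cells and not between genes. The genes named are the 8 genes, at most 10 of 20 listed tendon and family genes (those with the most UMIs, and any counted alone), and the 3 genes most like each of the 8, among genes with at least 100 UMIs in each rat population. The members and lists were chosen with earlier results of these data known. Calculations used python 3.11.15, scipy 1.17.1 and numpy 2.4.6 and were tested on simulated data.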

Additional observations from a re-analysis of the deposited data

Results flagged for a closer look

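Barcodes of mixed species, with more than 20% and less than 80% of UMIs on mouse genes, entered no comparison above. Of these 1653 chimera barcodes, 54 (3.27%) held UMIs of at least 4 of the 8 genes, and mouse genes made up a median of 26.1% of UMIs in those 54. Over all mixed barcodes there were 1116 rat and 162 mouse Tnmd UMIs and 2288 rat and 650.0 mouse Thbs4 UMIs. Both rows of the same gene were found together in 5 mixed barcodes for Tnmd, 11 for Thbs4 and 21 for Cilp.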

How the results depend on the processing

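Each value was recomputed under other choices of cell filters, doublets, species limits, clustering and pseudocount. The number of genes highest in tenocyte-like cells was 7 of 8 in both rat populations and 8 of 8 in mouse cells under each of them, except that species limits at 90% gave 8 in chimera rat and 7 in mouse cells. Of 128 recomputed differences between chimera rat and SD rat cells, 78 stayed within the counting interval, 42 moved and 8 reversed. For tenocyte-like against fibroblast-like cells the numbers were 153, 62 and 1 of 216. The small difference of Thbs4 (0.03) turned to -0.063 with species limits at 90%, -0.012 with doublets kept, -0.16 with rat and mouse rows summed and -0.34 inside the smaller cluster. With species limits at 90%, 55 chimera rat tenocyte-like cells were left, Cilp was higher in tenocyte-like than in fibroblast-like chimera rat cells (0.31), and 0 of the 8 genes were at least 2-fold lower than in the SD rat. Over the listed choices Comp ran from -1.28 to -0.53 and Cilp2 from -1.0 to -0.60. Inside the clusters, an alternative chosen after seeing the data, 0 genes were 2-fold lower in either, with and without the cell holding most UMIs of the gene. In the smaller one 1 gene, Chad, was 2-fold higher (1.49), but its value was -0.45 without that cell. Comp was at 0.87 there and at 0.74 without that cell, and its interval (-0.67 to 3.14) included no difference. Thbs4 without that cell was at -0.33 there. The cause was not tested.

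With 1 library per group, none was left out. No paired analysis was possible because each group has 1 sample, so fewer than 2 replicate numbers are shared. Depth limits Mkx most, with 246, 247 and 37 UMIs in the tenocyte-like cells of the 3 populations.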
